A study of Mus musculus with 3 samples.

Results

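The genes described here are 10 core components of the Notch pathway: the receptors *Notch1*, *Notch2*, *Notch3*, and *Notch4*, the ligands *Dll1*, *Dll3*, *Jag1*, and *Jag2*, the nuclear mediator *Rbpj*, and the target gene *Hes1*. They were found by name in the count table and make up 10 of its 55421 named genes. Their levels were examined in ALSCs, primed pluripotent stem cells derived from mouse epiblasts at embryonic day 6.5 and grown in a defined medium with Activin A and LIF. The embryos came from ICR females mated with GOF/GFP males, which carry a green fluorescent transgene, and this background and medium were common to all libraries. Poly(A) RNA of 3 ALSC libraries (replicates 1, 2, and 3) was sequenced, and the labels do not say whether these came from separately derived lines. No other cell type was analysed here, so each value below describes ALSCs and no difference between conditions was tested.

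Notch receptors are cell-surface proteins that are switched on by Delta or Jagged ligands on a neighbouring cell. Ligand pulling exposes the receptor to cleavage by an ADAM protease and then by γ-secretase, and the freed intracellular domain enters the nucleus. There it joins RBPJ, the DNA-binding protein of the pathway, and Mastermind proteins to switch on targets such as the *Hes* and *Hey* repressor genes. Without the intracellular domain, RBPJ recruits corepressors to the same sites. In the embryo the pathway is best known for holding back neuronal differentiation and for timing the formation of somites.

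Levels are given as FPKM, the reads of a gene scaled to its length in kilobases and to the size of its library. They are a mean ± SD of 3 libraries. Library totals on named genes lay between 18037342 and 18724038 counts, and a gene at or under 3 counts was taken as not detected. Replicate 1 stood apart from the others. The biological coefficient of variation was 0.149 over all libraries and 0.0524 without replicate 1, and replicate 1 read lower in long genes and higher in short ones. All 8 markers of pluripotent epiblast reached 1 FPKM in all libraries, led by *Pou5f1* at 648 ± 25.3 FPKM (SD, n = 3), and their summed level lay between 1357 and 1368. The cells are labelled as embryonic stem cells, but none of the 4 markers of the naive state (*Zfp42*, *Klf4*, *Esrrb*, and *Tbx3*) reached 1 FPKM in every library.

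Markers of 3 tissues in which Notch is prominent were examined in turn. Of 8 markers of neural progenitors and neurons, *Sox1* (8.18 ± 0.393 FPKM) and *Tubb3* (28.0 ± 1.31 FPKM) passed 1 FPKM, whereas *Neurog1* had 0 counts in every library. The summed level of these 8 markers lay between 36.2 and 38.0 FPKM. By contrast, none of 6 presomitic mesoderm markers and none of 6 endothelial markers reached 1 FPKM, and *Msgn1*, *Tie1*, and *Emcn* had 0 counts. Their summed levels lay between 1.59 and 2.34 FPKM and between 0.606 and 1.17 FPKM. Bulk libraries cannot tell a low level in all cells from a high level in few cells, nor fewer cells of a type from less RNA per cell.

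The sequence that RBPJ binds, GTGGGAA, was searched on both strands of RefSeq promoter windows (GRCm38.p6) that reach from 250 bases before to 50 bases after a transcription start. Of the 10 genes, 9 (all but *Hes1*) matched the table with 11 windows, and 0 of these windows held the sequence. Of 9 other genes listed as pathway targets, 5 matched with 6 windows, and 3 windows held it. Over the whole table, 6.38% of 32851 windows held it. The windows of *Hes6* and *Nrarp* did not hold it. The 3 promoters shown were picked because they held the sequence, and the transcripts of their genes are described below. They are written from 5′ to 3′ on the gene's strand, and capitals mark GTGGGAA or its complement TTCCCAC.

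*Hes5*, chr4:154960673-154960922, plus strand: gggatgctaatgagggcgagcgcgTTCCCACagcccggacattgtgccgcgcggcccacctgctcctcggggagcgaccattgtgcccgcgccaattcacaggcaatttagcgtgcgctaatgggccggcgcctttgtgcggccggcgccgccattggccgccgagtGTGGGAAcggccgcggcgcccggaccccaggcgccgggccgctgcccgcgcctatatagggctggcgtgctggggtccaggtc
*Hey2*, chr10:30842781-30843033, minus strand: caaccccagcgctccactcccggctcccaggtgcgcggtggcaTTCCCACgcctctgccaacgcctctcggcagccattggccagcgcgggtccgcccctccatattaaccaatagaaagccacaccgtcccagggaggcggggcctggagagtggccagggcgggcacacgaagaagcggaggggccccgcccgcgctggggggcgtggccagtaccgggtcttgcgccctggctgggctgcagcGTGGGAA
*Hes7*, chr11:69120203-69120452, plus strand: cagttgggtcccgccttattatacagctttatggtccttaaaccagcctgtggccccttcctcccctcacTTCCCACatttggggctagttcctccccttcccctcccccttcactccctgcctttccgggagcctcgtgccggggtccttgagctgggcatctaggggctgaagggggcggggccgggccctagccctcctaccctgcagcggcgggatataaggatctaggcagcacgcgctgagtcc

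*Hes5* and *Hey2* each held 2 matches and *Hes7* held 1. In *Hes5* the matches lay 226 to 220 and 83 to 77 bases before the start, on opposite strands. The N-box CACNAG, a sequence bound by HES repressors, was found in 4 of the 11 windows of the 10 genes (*Notch1*, *Notch2*, *Notch3*, and *Dll1*), beside 42.5% of all windows, so this share was close to the background. A match is a description of letters and was not tested for binding.

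All 10 genes, each protein-coding, were detected in every library. Of these, 8 reached 1 FPKM in all 3 libraries, beside 20.1% of all named genes, noncoding ones included. The exceptions were *Notch4* and *Dll1*, which crossed that level in 2 libraries each. The levels ran from 1.14 ± 0.231 FPKM for *Dll1* to 52.9 ± 18.4 FPKM for *Notch3*, while the median of the 11125 genes that reached 1 FPKM in all libraries was 8.21. In order of the mean, *Notch3* was followed by *Hes1*, *Jag2*, *Dll3*, *Rbpj*, *Notch2*, *Notch1*, *Jag1*, *Notch4*, and *Dll1*. Of the 9 pairs of neighbours in this order, 5 overlapped in their library values when the table's gene lengths were used. These were *Jag2* with *Dll3*, *Rbpj* with *Notch2*, *Notch2* with *Notch1*, *Notch1* with *Jag1*, and *Notch4* with *Dll1*. With 3 libraries, a two-sided exact test of such an order cannot give a p below 0.25, so the order is a description.

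**Figure D1:**
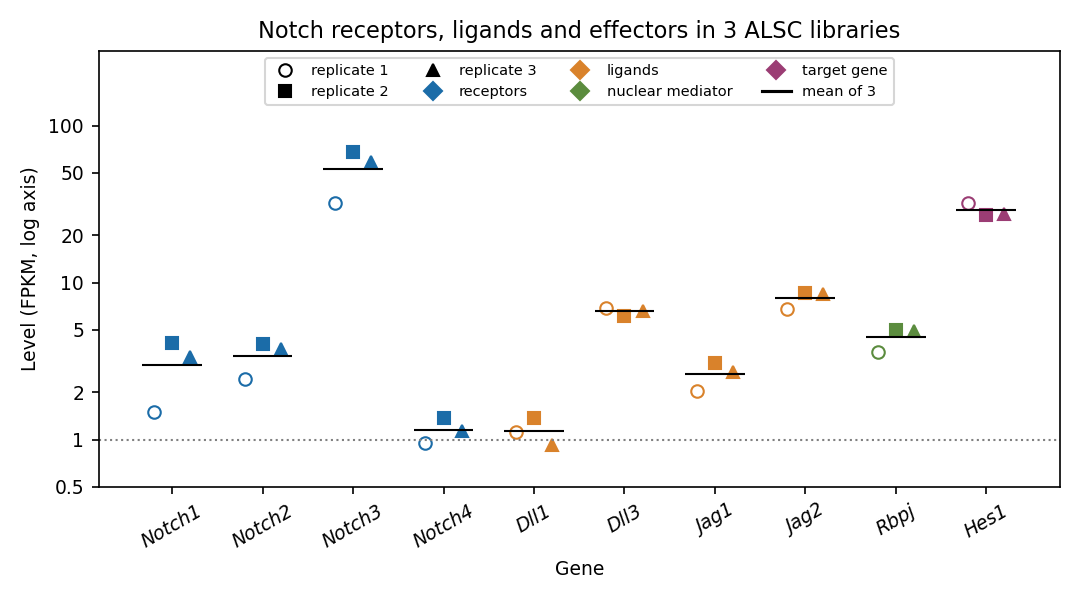
Level of the 10 genes in each ALSC library, as FPKM on a log axis, with replicate 1 as open circles, replicates 2 and 3 as filled squares and triangles, and the mean of 3 as a black line. *Notch3* and *Hes1* stand above 25 FPKM in every library, the other genes stay below 10, and replicate 1 is the lowest point for 7 genes.

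*Notch3* was the predominant receptor transcript. *Notch3* (ENSMUSG00000038146, chr17:32120820-32166852, minus strand, GRCm38) had 4736, 10272, and 8552 counts in replicates 1, 2, and 3, which corresponded to 32.4, 67.8, and 58.6 FPKM. Replicate 1 was the lowest, and *Notch3* was the receptor with the highest level in every library. It made up 86.9%, 87.7%, and 87.6% of the summed level of the 4 receptors, a share of 87.4 ± 0.403%. The share thus moved by less than 1 percentage point between libraries, although the level itself ran from 32.4 to 67.8 FPKM.

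On the table's gene lengths, *Notch1* and *Notch2*, the receptors most widely used across tissues, were close to each other. *Notch1* (ENSMUSG00000026923, chr2:26457903-26516663, minus strand) was at 1.49, 4.11, and 3.38 FPKM, from 384, 1094, and 867 counts. *Notch2* (ENSMUSG00000027878, chr3:98013527-98150361, plus strand) was at 2.43, 4.05, and 3.80 FPKM, from 474, 818, and 739 counts. Both were lowest in replicate 1, and their ratio, *Notch1* to *Notch2*, was 0.614, 1.01, and 0.889, so neither was the higher in all libraries. Per base of the longest coding transcript, the mean was 4.49 FPKM for *Notch1* and 3.52 FPKM for *Notch2*, so the order of their means depended on the length used. *Notch4* (ENSMUSG00000015468, chr17:34564268-34588503, plus strand), a receptor known from endothelium, was at 0.946, 1.38, and 1.14 FPKM, from 138, 209, and 166 counts. The 3 receptors other than *Notch3* together reached 4.87, 9.54, and 8.32 FPKM, and *Notch2*, *Notch1*, and *Notch4* took 5.81 ± 0.655%, 4.79 ± 0.688%, and 2.01 ± 0.460% of the receptor sum.

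Among the ligands, *Jag2* and *Dll3* were the most abundant. *Jag2* (ENSMUSG00000002799, chr12:112907819-112929776, minus strand), a Jagged-type activating ligand, was at 6.77, 8.62, and 8.52 FPKM, from 853, 1124, and 1070 counts. *Dll3* (ENSMUSG00000003436, chr7:28293553-28302238, minus strand), a divergent Delta protein known to inhibit Notch within the cell that makes it, was at 6.93, 6.17, and 6.58 FPKM, from 357, 329, and 338 counts. On the table's gene lengths, *Dll3* was higher than *Jag2* in replicate 1 and lower in replicates 2 and 3, so their order was not fixed. Per base of the longest coding transcript, the mean was 10.9 FPKM for *Jag2* and 7.14 FPKM for *Dll3*. On that scale *Jag2* was the higher in every library. *Jag2* took 43.5 ± 2.90% and *Dll3* 36.1 ± 4.61% of the summed level of the 4 ligands.

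*Jag1* and *Dll1*, both activating ligands, were lower. *Jag1* (ENSMUSG00000027276, chr2:137081456-137116644, minus strand) was at 2.04, 3.09, and 2.68 FPKM, from 215, 337, and 282 counts. *Dll1* (ENSMUSG00000014773, chr17:15367354-15376872, minus strand) was at 1.11, 1.38, and 0.920 FPKM, from 85, 109, and 70 counts. *Jag1* was above *Dll1* in every library, and their shares of the ligand sum were 14.2 ± 1.98% and 6.23 ± 1.17%. Further ligands were all but missing from the counts. *Dll4*, the Delta ligand of blood vessels, had 0, 2, and 0 counts, *Dlk1* had 0 counts in every library, which allows at most 0.0294 FPKM at 3 counts, and *Dlk2* had 3, 7, and 0 counts. *Dlk2* overlaps *Abcc10* on the other strand, which had 142, 228, and 178 counts, and the use of strand in counting is not given in the sources used here.

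**Figure D2:**
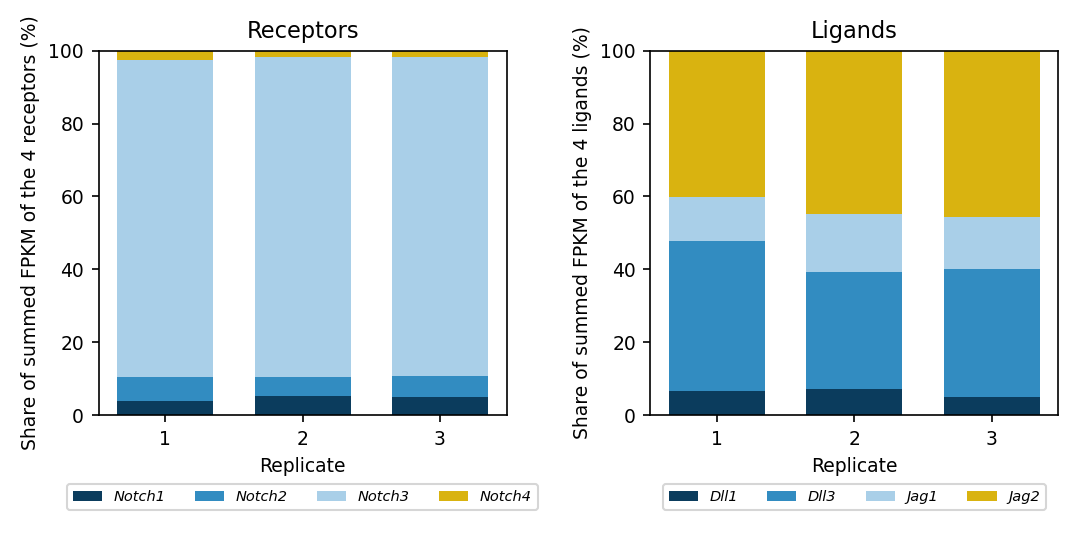
Share of each receptor (left) and each ligand (right) in the summed FPKM of its class, as stacked bars in percent for replicates 1, 2, and 3. *Notch3* fills between 86.9% and 87.7% of the receptor bar in each library, while the ligand bar is divided mainly between *Jag2* and *Dll3*.

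The summed level of the receptors was 37.2, 77.4, and 66.9 FPKM, and that of the ligands was 16.8, 19.3, and 18.7 FPKM. Receptor transcripts exceeded ligand transcripts in every library, by 2.21-fold in replicate 1, 4.02-fold in replicate 2, and 3.58-fold in replicate 3. *Notch3* alone exceeded the sum of the 4 ligands in each of the 3 libraries.

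*Rbpj* (ENSMUSG00000039191, chr5:53466152-53657362, plus strand), which encodes the DNA-binding partner of the Notch intracellular domain, was at 3.63, 4.96, and 4.95 FPKM, from 838, 1185, and 1138 counts. Replicate 1 was again the lowest, while replicates 2 and 3 were nearly equal. The table gives *Rbpj* a length of 12750 bases, whereas its longest coding transcript in GENCODE M21 has 5485. Per base of that transcript its mean level was 10.5 FPKM in place of 4.52, which puts it next to *Jag2* at 10.9 and above *Dll3* at 7.14 on the same scale. *Rbpjl*, a paralogue used in the pancreas, had 0, 6, and 0 counts.

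Reads of *Rbpj* can also fit a processed pseudogene, *Rbpj-ps3* (chr6:46529354-46530794, minus strand), an intronless copy that lies within *Cntnap2* on the other strand. Of the 50-base words of the *Rbpj* transcript, 75.7% occurred in no transcript of another gene, and 1239 words were shared with *Rbpj-ps3*. The table gives *Rbpj-ps3* 75, 220, and 228 counts. At its length of 1441 bases these correspond to 2.88, 8.15, and 8.77 FPKM, above *Rbpj* in replicates 2 and 3 on the table's lengths. The counts were 8.21%, 15.7%, and 16.7% of the counts of both genes. How the authors' counting treated reads that match both is not given in the sources used here, so the *Rbpj* level is uncertain, and these shares do not bound the error. The pair of primers with which the study measured *Rbpj* by RT-qPCR is shown because it bears on the same point. Both primers matched *Rbpj* and *Rbpj-ps3* without a difference, and so did the 68-base product between them.

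*Rbpj* forward primer: agtcttacggaaatgaaaaacga
*Rbpj* reverse primer: ccaaccactgcccataagat
Product in *Rbpj* and in *Rbpj-ps3*: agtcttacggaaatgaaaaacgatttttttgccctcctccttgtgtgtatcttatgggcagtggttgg

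In *Rbpj* the product spans coding exons 5 and 6 of 13 in the longest coding transcript, at chr5:53636036-53636057 and chr5:53642024-53642069. In *Rbpj-ps3*, which has no introns, the product is 1 uninterrupted stretch, and it differed from that of *Rbpj* at 0 positions.

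*Hes1* (ENSMUSG00000022528, chr16:30064384-30067796, plus strand), a repressor gene that Notch and other signals switch on, was at 32.2, 27.1, and 27.5 FPKM, from 1187, 1033, and 1012 counts. It was the only one of the 10 genes that varied between libraries with replicate 1 as the highest. On the table's gene lengths, *Notch3* and *Hes1* were about equal in replicate 1, with a ratio of 1.00. *Notch3* was the higher by 2.50-fold in replicate 2 and 2.13-fold in replicate 3. The table gives *Hes1* 2037 bases, whereas its longest coding transcript has 1468. Per base of that transcript its mean level was 40.2 FPKM in place of 28.9, while *Notch3* went from 52.9 to 53.4 FPKM. With transcript lengths for both, *Hes1* was higher than *Notch3* in replicate 1, and their library values overlapped.

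The other genes listed as targets were mostly low, and whether Notch controls any of them in these cells was not tested. The list was drawn from textbook knowledge, and a place on it, as for *Hes6*, does not show that Notch controls the gene. Of 9 listed, 3 reached 1 FPKM in all libraries: *Hes6* at 27.1 ± 2.39, *Hey1* at 2.21 ± 0.415, and *Nrarp* at 1.35 ± 0.188 FPKM. *Hes6*, which encodes a HES protein known to oppose HES1, was at 29.4, 27.4, and 24.7 FPKM, and the ratio of *Hes1* to *Hes6* was 1.10, 0.990, and 1.12. *Hey1* and *Nrarp* encode a repressor and a feedback inhibitor of Notch. For *Nrarp*, only 22.7% of the 50-base words were unique, because an antisense RNA, *Gm38287*, overlaps it. That RNA had 0 counts in every library. How reads that match both were counted is not given, so the 0 counts do not show that *Nrarp* lost no reads, and its level is uncertain.

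The 3 genes whose promoters are printed above all stayed under 1 FPKM. *Hes5*, a main Notch target of neural progenitors, had 3, 6, and 4 counts, *Hey2*, a target known from heart and vessels, had 34, 12, and 13 counts, and *Hes7*, the oscillating repressor of the presomitic mesoderm, had 31, 26, and 7 counts. *Hes2* had 11, 13, and 12 counts, *Hes3* 6, 0, and 1, and *Heyl* 0, 2, and 0. The highest of these 6 genes per length was *Hes7* at 0.643 ± 0.382 FPKM, beside 28.9 ± 2.84 FPKM for *Hes1*.

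Of 63 further genes of the pathway, all protein-coding, 48 reached 1 FPKM in all libraries, beside 20.1% of all named genes, noncoding ones included. All 6 genes for receptor maturation and glycosylation did so, from *Mfng* (2.37 ± 0.399 FPKM), a Fringe glycosyltransferase that modifies Notch, to its relative *Rfng* (11.4 ± 0.414 FPKM). So did 8 of 9 genes for receptor cleavage. *Psenen*, a γ-secretase subunit, was the most abundant of these at 31.2 ± 6.21 FPKM, and *Aph1c*, a variant subunit, the least at 0.671 ± 0.130 FPKM. All 9 genes for receptor turnover passed as well, from *Dtx3l* (3.57 ± 0.700 FPKM) to *Dtx3* (28.3 ± 1.69 FPKM), which encode E3 ubiquitin ligases of the Deltex family.

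On the ligand side, 4 of 6 genes for ubiquitination and endocytosis reached 1 FPKM in all libraries. *Epn1*, an epsin needed for ligand uptake, was highest at 41.8 ± 2.62 FPKM, and *Neurl1b*, a ligand ubiquitin ligase, was lowest at 0.335 ± 0.0579 FPKM. In the nucleus, 6 of 8 activator genes and 12 of 13 corepressor genes passed. The most abundant activator gene was *Snw1* at 14.0 ± 0.947 FPKM, and the most abundant corepressor gene was *Hdac2*, a histone deacetylase, at 71.5 ± 6.16 FPKM. *Maml3*, a Mastermind coactivator, was the lowest detected activator gene at 1.28 ± 0.490 FPKM. The median level was 10.4 FPKM over the 13 corepressor genes and 3.82 FPKM over the 8 activator genes, *Rbpj* itself not included. The lowest detected corepressor gene was *Tle1* at 3.57 ± 0.397 FPKM, and *Tle2*, which like *Tle1* encodes a Groucho-type corepressor, had 8, 2, and 1 counts.

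**Figure D3:**
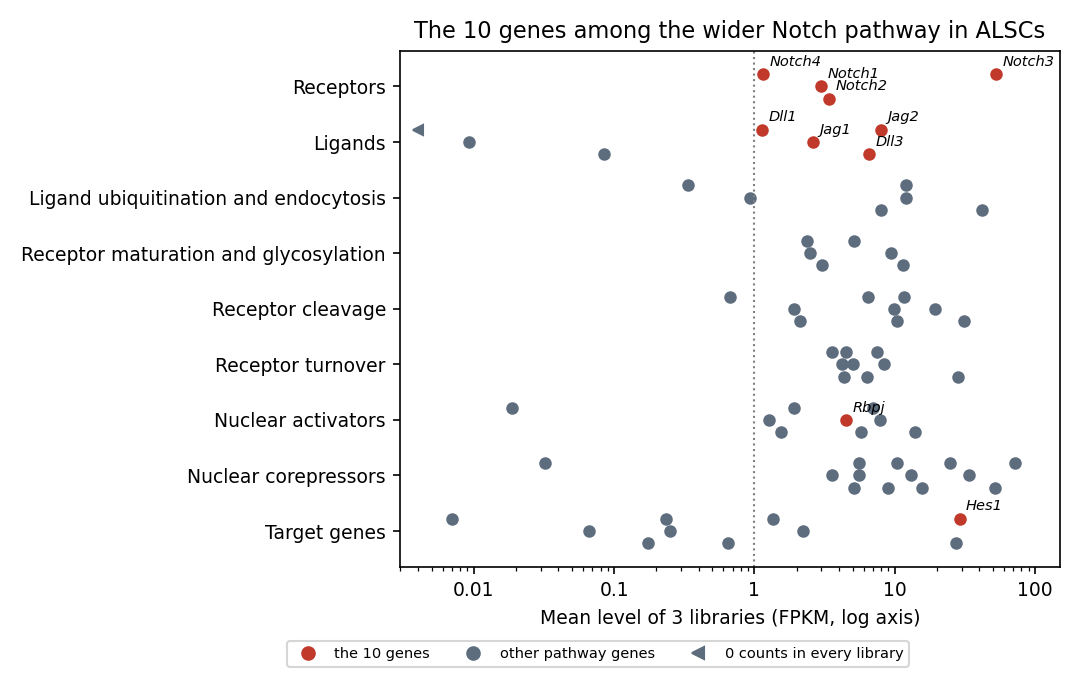
Mean FPKM of 3 ALSC libraries on a log axis for the 10 genes (red, named) and 63 other pathway genes (grey), by role, with a dotted line at 1 FPKM. Receptor processing and corepressor genes lie almost all to the right of the line. Of 9 genes listed as targets besides *Hes1*, 6 lie to the left of the line.

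The spread between libraries was compared with counting error by a chi-square test of homogeneity. It was run on every named gene whose counts summed to 10 or more, and p-values were adjusted by Benjamini-Hochberg and called at 0.05. The test compares these libraries and not conditions, and covers counting error only. Of the 10 genes, 8 varied, with replicate 1 lowest for 7 and highest for *Hes1*. Over the table, 47.2% of genes varied, 22.1% with replicate 1 lowest and 22.2% with it highest. Abundant genes are called more easily, and among genes that averaged 50 counts or more, as each of the 10 did, 61.1% varied.

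The adjusted p of the chi-square test was too small to be represented for *Notch3*, 5.68e-60 for *Notch1*, 5.95e-15 for *Notch2*, 3.24e-09 for *Rbpj*, 1.42e-07 for *Hes1*, 7.72e-05 for *Jag2*, 0.000640 for *Jag1*, and 0.0247 for *Notch4*. All 4 receptors thus varied. For *Dll3* and *Dll1* it was 0.137 and 0.0741, so their differences between libraries were within what counting error allows at this depth. Without replicate 1, 2 of the 10 genes varied between replicates 2 and 3, *Notch3* (adjusted p = 1.15e-16) and *Notch1* (adjusted p = 0.00243), beside 8.11% of all genes tested. Both were higher in replicate 2. The *Notch4* call was also lost without replicate 2 (adjusted p = 0.314).

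The ratio of replicate 1 to the mean of replicates 2 and 3, corrected for library composition, had a median of -0.36 on the log2 scale over the 10 genes and of 0.030 over the 11125 expressed genes. The 10 genes ranged from -1.26 for *Notch1* to 0.31 for *Hes1*. *Notch3* was at -0.90, *Notch2* at -0.62, *Jag1* at -0.43, *Rbpj* at -0.38, *Notch4* at -0.35, *Jag2* at -0.27, *Dll1* at 0.026, and *Dll3* at 0.19. Gene length also differed along this order. *Notch1*, *Rbpj*, and *Notch2* have 14232, 12750, and 10782 bases in the table and *Hes1* has 2037, while the median expressed gene has 4070.

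Genes were therefore set beside others of like length, in 20 equal groups of the 10577 genes that averaged 100 counts or more. *Dll1* averaged fewer and was only set beside its group. Genes as long as *Notch1* had a median ratio of -0.53, and 10% of them lay below -1.05. Genes as long as *Notch3*, with 8089 bases, had a median of -0.26, and 10% lay below -0.72. *Notch1* and *Notch3* were thus lower in replicate 1 than at least 90% of genes of like length, and the other 8 genes lay within the 10th to 90th percentile of theirs. Relative to the median of like genes, the ratio was -0.73 for *Notch1*, -0.64 for *Notch3*, -0.31 for *Jag1*, -0.28 for *Notch2*, 0.026 for *Hes1*, and 0.15 for *Rbpj*, whose direction was reversed. With groups formed on transcript length, it was -0.62 for *Notch1*, -0.40 for *Notch3*, and -0.072 for *Rbpj*, which was thus not reversed, while *Notch2* and *Notch4* turned to 0.012 and 0.064. By table length, *Rbpj* with 12750 bases lay at the short edge of its group, which began at 12734. The next shorter group had a median of -0.34, beside -0.38 for *Rbpj*, so its reversal depended on the group edge. The part of gene length in the differences of replicate 1 was not tested beyond these comparisons.

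**Figure D4:**
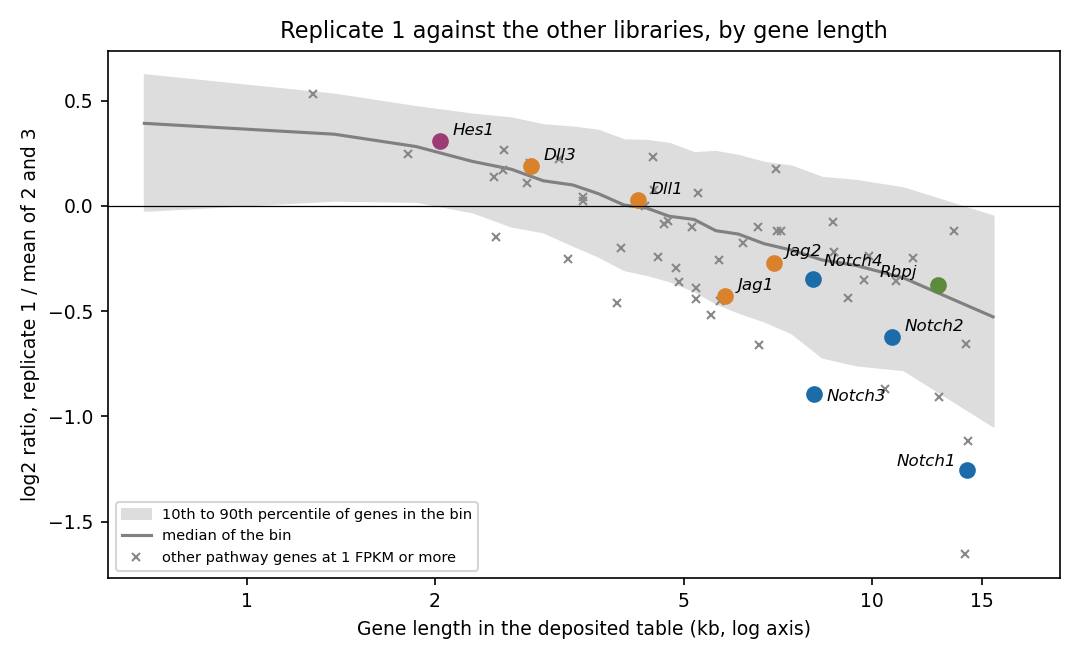
log2 ratio of replicate 1 to the mean of replicates 2 and 3 against gene length in the deposited table (kilobases, log axis). The grey line and band are the median and the 10th to 90th percentile of the 10577 genes that averaged 100 counts or more, in 20 length groups, drawn at each group's median length, coloured points are the 10 genes, and crosses are other pathway genes at 1 FPKM or more. *Notch1* at -1.26 and *Notch3* at -0.90 lie below the band.

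Of the 63 further pathway genes, 58 had enough counts for the chi-square test and 36 varied, beside 47.2% of all genes tested and 61.1% of those that averaged 50 counts or more, so this count was near the background of abundant genes. Replicate 1 was lowest for 27 of them and highest for 9. All 6 nuclear activator genes that varied were lowest in replicate 1, as were 8 of 10 corepressor genes. Relative to genes of like length, the median log2 ratio went from -0.41 to -0.32 over the expressed activator genes and from -0.23 to -0.048 over the expressed corepressor genes, and the activator gene *Crebbp* turned from -0.12 to 0.41. Of the 8 corepressor genes, *Tle1* and *Tle3* turned to 0.038 and 0.094. Without replicate 1, 5 of the pathway genes varied, among them *Epn1*, *Spen*, *Hdac2*, and *Hes7*, beside 8.11% of all genes tested, which is again near the background. *Spen*, a large RBPJ corepressor with 14089 bases, had 513, 1877, and 1570 counts and the lowest ratio of replicate 1 to the others among expressed pathway genes, -1.65 on the log2 scale.

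Other genes that overlap the 10 genes had few counts of their own. How reads that match both genes were counted is not given, so these counts do not show how many reads the 10 genes lost or gained. For *Dll1*, 530 words were shared with another gene, whose counts are not given here. The antisense RNA *0610009E02Rik* at *Notch1* had 7, 5, and 0 counts, and *Gm17276* at *Notch3* had 6, 8, and 8. Of the 50-base words, 86.3% were unique for *Notch1*, 95.0% for *Notch3*, 96.1% for *Notch2*, and 85.0% for *Dll1*, and 100% for *Notch4*, *Dll3*, *Jag1*, *Jag2*, and *Hes1*.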

How the data were processed

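RNA-seq counts of 3 ALSC libraries were used. The authors mapped paired-end reads to GRCm38 and deposited their raw counts of reads per gene in 1 table, not normalized, together with each gene's length. The submitters' processing notes name HISAT2 2.0.5. The counting program and its use of strand and of reads with several matches are not given in the sources used here. The table's 3 other columns of per-sample values match no sample of the series and were not used. The 317 rows without a gene name held 0.165% to 0.182% of counts and were left out.

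FPKM was computed from the count, the table's gene length, and the library's total on named genes. TMM factors came from edgeR 4.0.16 in R 4.3.3, with DESeq2 1.42.0 size factors as an alternative. The chi-square test was run in Python 3.11.15 with SciPy 1.17.1 on all named genes with at least 10 counts in total and was tested on simulated data. The length comparison used 10577 genes that averaged 100 counts or more. Transcript lengths, GC content, and unique words came from GENCODE M21, and promoters from RefSeq. Protein sequences were not analysed here.

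The 10 genes, the pathway list, and the markers were chosen with earlier results of these data known. Genes named were the 10 genes, the most and least abundant detected gene of each pathway role, genes with 0 counts in all libraries, and the markers. Other genes, among them the remaining ligands and target genes, *Rbpjl*, *Rbpj-ps3*, *Tle2*, *Tle3*, *Crebbp*, *Spen*, and overlapping genes, were named after their values were seen. p-values measure only the spread between these libraries, which may be technical. Floors of 3 counts cover counting error only, since the reads carry no molecular identifiers and are not independent.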

Additional observations from a re-analysis of the deposited data

How the results depend on the processing

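With the longest coding transcript as gene length, the share of *Notch3* in the receptor sum was 85.0% and that of *Jag2* in the ligand sum was 49.2%. Leaving out 1 library at a time gave 87.2% to 87.6% and 42.5% to 45.2%. The median log2 ratio of replicate 1 over the 10 genes was -0.36, -0.090 after the trend on gene length was taken off, -0.041 after trends on length and GC content, and -0.0064 after the trend on transcript length, the last 2 chosen after seeing the data. The ratio of *Rbpj* turned to 0.15 and 0.090 under the first 2 of these and was -0.072 on transcript length. *Rbpj* lay at the edge of its length group, so this turn depended on the grouping. On transcript length the ratios of *Notch2* and *Notch4* turned to 0.012 and 0.064. The cause was not tested. The number of the 10 genes that varied was 2 without replicate 1 and 7 and 8 without replicate 2 and 3. Of the 63 pathway genes it was 5, 31, and 31. Other library sizes and no filter on counts gave 8 of 10 each time, and thresholds of 0.5 FPKM, 2 FPKM, and 1 TPM left 10, 7, and 10 of the 10 genes past the level. The order of levels kept 43 to 45 of 45 pairs. No paired analysis was possible because all libraries here are of 1 condition. Depth limited *Dll1* and *Notch4* most, with 70 to 209 counts a library.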
